A study of Mus musculus with 11 samples.

Results

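The miR-200 family comprises 5 of the 334 mouse miRNAs on a custom array, mmu-miR-200b, mmu-miR-200a, mmu-miR-429, mmu-miR-200c and mmu-miR-141. Its members were found by name among the plus-strand spots, with 4 spots for each miRNA and 20 for the family. The arrays profiled whole normal mammary glands of female mice, in late pregnancy according to the methods, from 3 backgrounds, with 2 FVB, 3 Balb/C (Balbc in the labels) and 3 FVB129B6 arrays, and 3 primary C3(1)/Tag (C3TAg) mammary tumors of female FVB mice. No agent, age or allele is named for the glands. C3(1)/Tag mice express the SV40 T antigens under a rat promoter, C3(1), that drives them in mammary epithelium but not there alone, so the tumors model 1 oncogene in 1 strain. The tumors came from individual mice, while nothing says so for the glands. The labels do not say whether 2 Balb/C arrays, titled with a shared stem and the letters L and R, came from 1 mouse, and p-values measure only the spread between these arrays.

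MicroRNAs of the miR-200 family are abundant in epithelia and scarce in mesenchyme. They are best known for binding the transcripts of ZEB1 and ZEB2, repressors of E-cadherin, and for holding cells in an epithelial state. A miRNA selects targets mainly through its seed, bases 2 to 8 of the mature strand. The mature sequences are shown because they divide the family by seed in one way and by genomic cluster in another, and because the array has to tell them apart. In the RefSeq entries of build GRCm38.p6, with the seed in capitals, all 5 matched as the -3p strand:
miR-200b: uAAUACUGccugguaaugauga
miR-200c: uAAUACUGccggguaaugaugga
miR-429: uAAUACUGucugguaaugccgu
miR-200a: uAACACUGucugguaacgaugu
miR-141: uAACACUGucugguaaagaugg
The first 3 share the seed AAUACUG and the last 2 the seed AACACUG. Of 1679 mature mouse sequences in the RefSeq table, these 3 and these 2 were the ones with the respective seed.

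The genes lie in 2 clusters. On the minus strand of chromosome 4, the hairpin of Mir200b lies at chr4:156055681-156055750, Mir200a at chr4:156054896-156054985 and Mir429 at chr4:156053905-156053987. They span 1846 bases inside the lncRNA gene Gm13648, and the nearest protein-coding neighbor in the annotation is Ttll10. On the minus strand of chromosome 6, Mir200c lies at chr6:124718322-124718390 and Mir141 at chr6:124717914-124717985. This pair spans 477 bases between the protein-coding genes Phb2 and Ptpn6, with no other annotated gene over it. Members of a cluster are generally thought to be cut from a shared primary transcript.

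The most similar mature strands lie on different chromosomes. Counting positions from 1 at the 5′ end, miR-200b and miR-200c differed by 2 bases over the 22 compared, U11G and A22G, and miR-200a and miR-141 by 2 bases, C17A and U22G. Within clusters, each pair differed by 4 bases. Each 60-base probe paired with 22 bases of its miRNA. The paired parts of the probes for the pair of closest members with the second seed were, written 5′ to 3′:
miR-200a probe: acatcgttaccagacagtgtta
miR-141 probe: ccatctttaccagacagtgtta
How much signal a member's probe takes from another member was not tested. Levels are therefore compared between samples for a member, and never between members.

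A level is the log2 of the green (Hy3) processed intensity minus the median of the array over all mouse spots, averaged over a miRNA's spots. It was called well above background where at least 50% of its 4 spots were. The array medians were 188.5 and 245.5 for FVB, 508 to 583 for Balb/C, 520.5 to 671.5 for FVB129B6 and 125 to 170 for tumors, and 209 to 262 miRNAs were well above background on a gland array against 15 to 64 on a tumor array. All 8 gland arrays shared 1 slide and a later version of the scanner program than the tumor arrays, so slide, program and tissue cannot be told apart. No green spot was saturated. In bulk tissue, fewer cells of a type and less RNA per cell cannot be told apart either.

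On the gland arrays all 32 spots of each member were well above background. Their signals were precise, with a median range over the 4 spots of an array of 0.12 on the log2 scale. The widest, 1.11, was for miR-200b on FVB replicate 2, where a spot marked as an outlier read 6.95 beside 7.99, 8.05 and 8.06; it was left out. In all, 6 member spots were left out as outliers, 5 of miR-200b and 1 of miR-200a, all on gland arrays. On the tumor arrays, by contrast, 0 of 12 spots of miR-200b and 0 of 12 of miR-141 were well above background. For the others the count was 8 of 12 for miR-200a, 4 of 12 for miR-429 and 2 of 12 for miR-200c, and the median range over the spots of an array was 1.18.

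**Figure D1:**
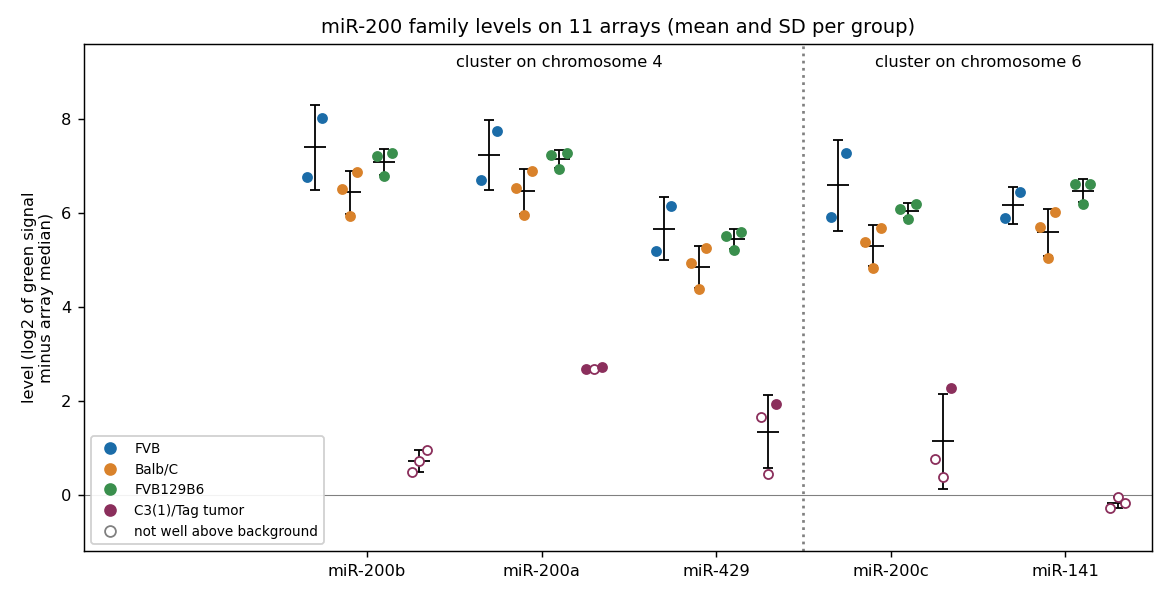
Level of each member on each array (points), with the mean and SD of each group (bars). The vertical axis is log2 of green signal minus the array median. Open points are not well above background. All tumor points lie below all gland points of the same member, and the gland groups lie close together or overlap.

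miR-200b, the first hairpin of the chromosome 4 cluster, had levels of 6.76 and 8.03 in FVB glands, 6.51, 5.95 and 6.86 in Balb/C glands and 7.20, 6.78 and 7.28 in FVB129B6 glands. Its tumor levels were 0.47, 0.71 and 0.94. The glands of the 3 strains overlapped, and the tumors lay far below them.

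miR-200a, the neighbor of miR-200b with the other seed, had levels of 6.70 and 7.76 in FVB, 6.53, 5.96 and 6.90 in Balb/C and 7.23, 6.93 and 7.28 in FVB129B6 glands. In tumors it read 2.67, 2.67 and 2.72. It was the member measured most often in tumors, on 2 of the 3 arrays, replicates 1 and 3. The like value on replicate 2 rested on 1 spot at 4.58, the only spot there well above background, beside 2.38, 2.21 and 1.53 for the other 3.

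miR-429 had levels of 5.19 and 6.14 in FVB, 4.94, 4.38 and 5.26 in Balb/C and 5.51, 5.20 and 5.60 in FVB129B6 glands. Its tumor levels were 1.65, 0.45 and 1.93, of which only the last was well above background. The order of the gland arrays was close to that of the other chromosome 4 members.

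miR-200c, the first hairpin of the chromosome 6 cluster, had levels of 5.90 and 7.27 in FVB, 5.38, 4.82 and 5.69 in Balb/C and 6.09, 5.87 and 6.18 in FVB129B6 glands. Its tumor levels were 0.76, 0.37 and 2.28. Only the third tumor replicate was well above background, on 2 of 4 spots.

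miR-141, which shares the miR-200c cluster and the miR-200a seed, had levels of 5.88 and 6.44 in FVB, 5.71, 5.04 and 6.02 in Balb/C and 6.62, 6.20 and 6.62 in FVB129B6 glands. Its tumor levels were -0.29, -0.06 and -0.19, near the array median and below the threshold on every tumor array. For 4 of the 5 members the strain means fell in the order FVB, FVB129B6, Balb/C, while for miR-141 FVB129B6 came first. These orders are not firm, since in no member did neighbors in the order differ by the test.

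The question put to the strains was whether the background of a mouse alters the family in the normal gland. In limma's moderated F-test over the 8 gland arrays, with Benjamini-Hochberg adjustment over 261 miRNAs and a threshold of 0.05, none of the 5 members was called, against 46.0% of all tested miRNAs. At an unadjusted p under 0.05 there were 2, miR-200c and miR-141, with adjusted p of 0.0772 and 0.0834 by limma.

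Balb/C glands had lower mean levels than FVB glands for all 5 members, but in 1 alone did the difference pass the test. In Balb/C, miR-200c fell by 1.29 on the log2 scale (SE 0.41, limma adjusted p = 0.0429), with levels in Balb/C glands all below both FVB arrays. The background rate of calls was 37.9% in either direction and 32.2% lower in Balb/C, so 1 of 5 is not above it. Groups did not overlap for 58.2% of tested miRNAs. The other 4 differences ran from -0.96 for miR-200b to -0.57 for miR-141, with adjusted p of 0.105 to 0.186 by limma. The median difference of all tested miRNAs was -0.48 on this scale. Relative to that median, miR-200c was lower by 0.81 and miR-141 by 0.09.

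The miR-200c call did not hold in every setting. With the 75th percentile for scaling, where the median of all tested miRNAs moved to -0.05 and the calls from 84 lower and 15 higher to 16 lower and 31 higher, the difference was -0.86 and no member was called. It was also lost without either Balb/C replicate 1 or 2, without FVB replicate 2, and without any single FVB129B6 array. Without FVB replicate 1, 4 members were called, miR-200a, miR-200b, miR-429 and miR-200c, beside 39.3% of all tested miRNAs, with the remaining FVB array assumed to vary like the other groups. On the raw log2 scale all 5 differences were above 0, from 0.06 to 0.78, and with normexp background correction those of miR-141, miR-200a and miR-429 were, so the direction depends on the processing.

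Between FVB129B6 and FVB glands, which share the FVB arrays with the comparison above, no member was called by limma, against 39.5% of all tested miRNAs, and none reached an unadjusted p of 0.05. No member had groups that did not overlap, where 64.4% of tested miRNAs did. The differences ran from -0.54 for miR-200c (95% interval -1.50 to 0.42) to 0.32 for miR-141 (-0.44 to 1.07), beside a median of -0.39 over all tested miRNAs. Relative to that median, miR-141 was 0.71 higher and miR-200c 0.15 lower. With 75th percentile scaling the differences of miR-200a, miR-200b and miR-429 changed sign, to 0.28, 0.05 and 0.14, and the calls over all miRNAs went from 82 lower and 21 higher to 43 lower and 40 higher. The other intervals also included 0, and that of miR-200a ran from -0.95 to 0.79.

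Balb/C against FVB129B6 glands gave the most even differences. All 5 members had lower means in Balb/C, by 0.89 for miR-141, 0.75 for miR-200c, 0.69 for miR-200a, 0.65 for miR-200b and 0.58 for miR-429, beside a median of 0.03 over all tested miRNAs. None was called by limma (adjusted p of 0.136 to 0.363), where 3.45% of all tested miRNAs were, and 1, miR-141, had an unadjusted p under 0.05. For miR-200a, miR-200c and miR-141 the 3 Balb/C arrays all lay below the 3 FVB129B6 arrays, 3 of 5 members beside 31.4% of tested miRNAs. These differences kept their direction under every scaling run, with miR-141 between -0.96 and -0.77.

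The members deviated together within a strain. On Balb/C replicate 2 every member lay below its group mean, by 0.47 to 0.55, and on Balb/C replicate 3 every member lay above, by 0.39 to 0.44. On the FVB129B6 arrays deviations were smaller, from -0.31 to 0.19. Replicates 2 and 3 are the arrays with the shared title stem. Beside this, the summed signal of the epithelial list described below, in multiples of the array median, was lowest of the strain on Balb/C replicate 2, at 86.8. The sum of 5 stromal miRNAs was also lowest there, at 606 against 689 and 810 on replicates 1 and 3. That of 6 blood and lymphoid miRNAs was highest there, at 753, against 345 and 243 on replicates 1 and 3. Their part in the members' levels was not tested.

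FVB replicate 2, with the lowest median of the glands, exceeded replicate 1 for each member, by 1.36 for miR-200c, 1.27 for miR-200b, 1.05 for miR-200a and 0.95 for miR-429, but by 0.56 for miR-141. The unscaled green signal of miR-200c was 14700 on replicate 1 and 29000 on replicate 2, while that of miR-141 was 14500 and 16400. miR-141 thus stood apart from its cluster partner on that array.

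**Figure D2:**
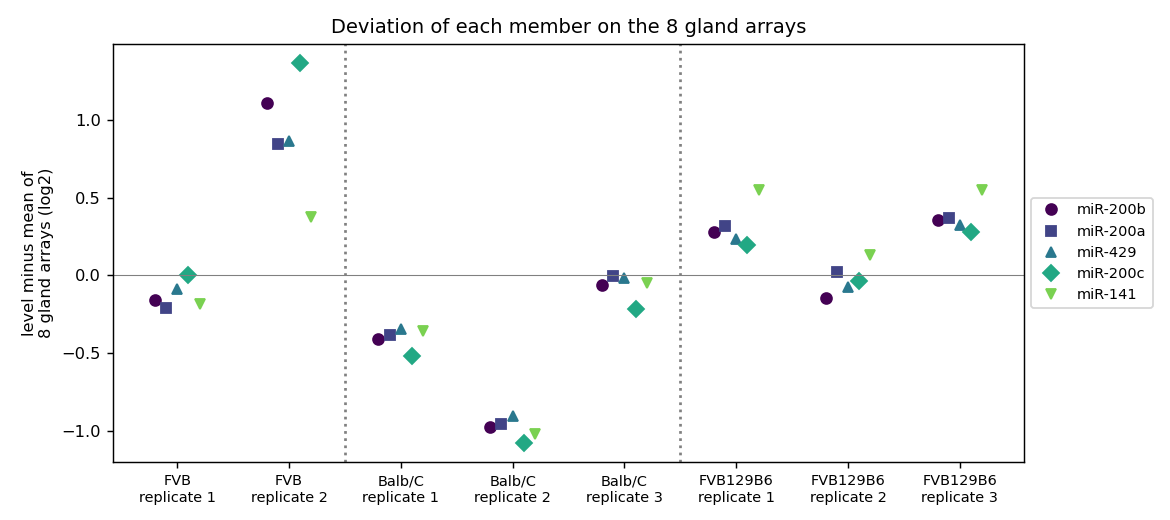
Deviation of each member from its own mean over the 8 gland arrays (log2, vertical axis) by array. All 5 symbols are lowest on Balb/C replicate 2. All but miR-141 are highest on FVB replicate 2, and miR-141 is highest on FVB129B6 replicates 1 and 3.

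Over the 8 gland arrays, Pearson's r between members was 0.790 to 0.995 in 10 pairs, given as a description, since the points share slide, strain and scaling. It was 0.984 to 0.995 within the chromosome 4 cluster, and 0.955 to 0.983 between its members and miR-200c of the other cluster. The lowest value was that of miR-200c with miR-141, the members of the chromosome 6 cluster, and miR-141 correlated best with miR-200a, at 0.919. The median r of the other 256 tested miRNAs with the family mean was 0.250.

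The non-members whose gland pattern was most like the family mean were miR-181b (r = 0.944), miR-146b (0.944), miR-148a (0.938), miR-335 (0.927) and miR-210 (0.925), over the same 8 arrays. Levels of miR-148a, a miRNA abundant in milk and the lactating gland, ran from 6.90 to 8.46. Those of miR-210, induced by hypoxia in many cells, ran from 2.39 to 4.33. All 5 were well above background on every gland array. In tumors miR-148a was at least 68.3-fold, miR-146b at least 67.5-fold and miR-335 at least 4.9-fold lower than in glands, while miR-181b differed by -2.50 and miR-210 by -0.84 (limma adjusted p of 2.41e-06 and 0.00537). Under 75th percentile scaling miR-148a and miR-146b were still at least 8.68-fold and 8.59-fold lower, no bound could be given for miR-335 (difference -1.12), and the direction turned for miR-181b (0.48) and miR-210 (2.14).

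The difference between the clusters, the mean level of miR-200b, miR-200a and miR-429 minus that of miR-200c and miR-141 on the same array, does not move with the scaling constant of an array. It has no meaning of its own, because probes differ in brightness, and is compared between groups as values with no test. In FVB129B6 glands it was 0.29, 0.27 and 0.32, in Balb/C glands 0.45, 0.49 and 0.49, and in FVB glands 0.32 and 0.46. The Balb/C values all lay above the FVB129B6 values, with means of 0.48 and 0.30 and SDs of 0.03 in each, and the FVB values spanned the gap. While the family mean covered 5.23 to 7.13 over the 8 glands, the difference of the clusters stayed within 0.27 to 0.49.

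In tumors the cluster difference was 1.36, 1.12 and 0.82, with a mean of 1.10 (SD 0.27, n = 3), above every gland. Most of the values behind it were not well above background. When levels were raised to a floor, the dimmest miRNA still well above background on the same array, 4, 4 and 2 of the 5 members were moved on tumor replicates 1, 2 and 3 and none on any gland. The tumor values were then 0.22, 0.18 and 0.20, below every gland. The side of the glands on which the tumors fell thus changed with the floor, and without miR-141 the tumor mean minus the gland mean was 0.01.

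**Figure D3:**
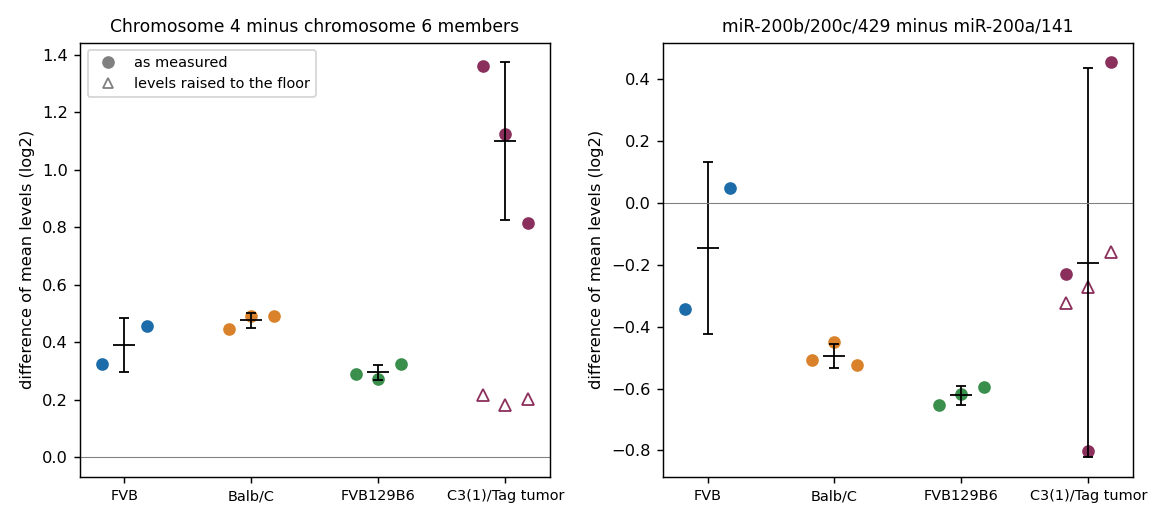
Difference of mean levels (log2) by array, for the genomic clusters on the left and for the seed groups on the right, with the mean and SD of each group (bars, from the filled points). Open triangles show the tumor arrays after levels were raised to the floor. Filled tumor points lie above all glands on the left, and the triangles lie below them.

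Split by seed instead, the mean of miR-200b, miR-200c and miR-429 minus that of miR-200a and miR-141 was -0.65, -0.62 and -0.59 in FVB129B6 glands, -0.51, -0.45 and -0.52 in Balb/C glands and -0.34 and 0.05 in FVB glands. The 3 strains did not overlap, in the order FVB, Balb/C, FVB129B6. In tumors it was -0.23, -0.80 and 0.45, and with levels raised to the floor -0.33, -0.27 and -0.16. The difference of miR-200c and miR-141, which share a cluster but not a seed, followed the same order, at 0.02 and 0.83 in FVB, -0.32, -0.22 and -0.33 in Balb/C and -0.52, -0.33 and -0.43 in FVB129B6 glands, with Balb/C and FVB129B6 all but touching. The difference of miR-200b and miR-200a, neighbors on chromosome 4, stayed between -0.16 and 0.28 over the 8 glands.

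In a limma fit over all 11 arrays, the tumors were set against an average that gave each strain equal weight. All 5 members were called lower in tumors, where 90.4% of all tested miRNAs were called and 52.5% were called lower. The groups did not overlap for any member, nor for 77.8% of tested miRNAs. The median difference of all tested miRNAs was -0.83, while the members had -6.27 for miR-200b (SE 0.29), -6.25 for miR-141 (SE 0.23), -4.84 for miR-200c (SE 0.41), -4.26 for miR-200a (SE 0.25) and -3.98 for miR-429 (SE 0.34), with limma adjusted p of 7.98e-10 to 7.59e-07. All 5 were among the 62 lowest of 261. These 261 all passed the filter on signal, described below, on the gland arrays alone. Without the filter, 138 of 334 miRNAs were called lower and 173 higher, and the median difference was 0.67.

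For miR-200b and miR-141, no tumor array was well above background, so only a bound can be given. miR-200b was at least 36.2-fold lower in tumors (gland mean 6.97, measured tumor mean 0.71, adjusted p = 5.55e-09 by limma). miR-141 was at least 19.4-fold lower (gland mean 6.08, measured tumor mean -0.18, adjusted p = 7.98e-10 by limma). These 2 p-values set gland levels against tumor readings not well above background. The bound puts the floor of each tumor array, 2.02, 2.13 and 1.23, in place of a member's lower level. miR-200a, measured on 2 of 3 tumor arrays, was 19.1-fold lower (95% interval 12.9 to 28.3). The sizes of miR-200c and miR-429 rest on 1 tumor array well above background each.

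The sizes depended on the scaling, and on tumor arrays the median lay below the floor. The mean floor of the tumor arrays also lay 0.95 above their 75th percentile. The 75th percentile moved the median of all tested miRNAs to 2.14, and the split of calls from 137 lower and 99 higher to 70 lower and 172 higher. The members then differed by -3.29 (miR-200b), -3.28 (miR-141), -1.87 (miR-200c), -1.28 (miR-200a) and -1.0 (miR-429), all still called, and the bounds fell to 4.61-fold for miR-200b and 2.47-fold for miR-141. Relative to the median of all tested miRNAs, the members differed by -5.43, -5.42, -4.01, -3.42 and -3.15 in the same order. By construction these relative values cannot move under a scaling by 1 constant per array. Over all the processing settings, left-out arrays aside, they ran from -6.94 to -1.76 for miR-200b and -7.39 to -3.3 for miR-141. For miR-200c, miR-200a and miR-429 they ran from -5.51 to -1.9, -4.93 to 0.08 and -4.65 to -0.6. With levels raised to the floor the differences were -5.18, -4.28, -3.83, -4.26 and -3.29, all called. Under quantile normalization and for the ratio of green to red signal, miR-200a and miR-429 were no longer called. Of all tested miRNAs, 68.6% were called under quantile normalization and 66.7% for the ratio. For the ratio the miR-200a difference was 0.04.

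**Figure D4:**
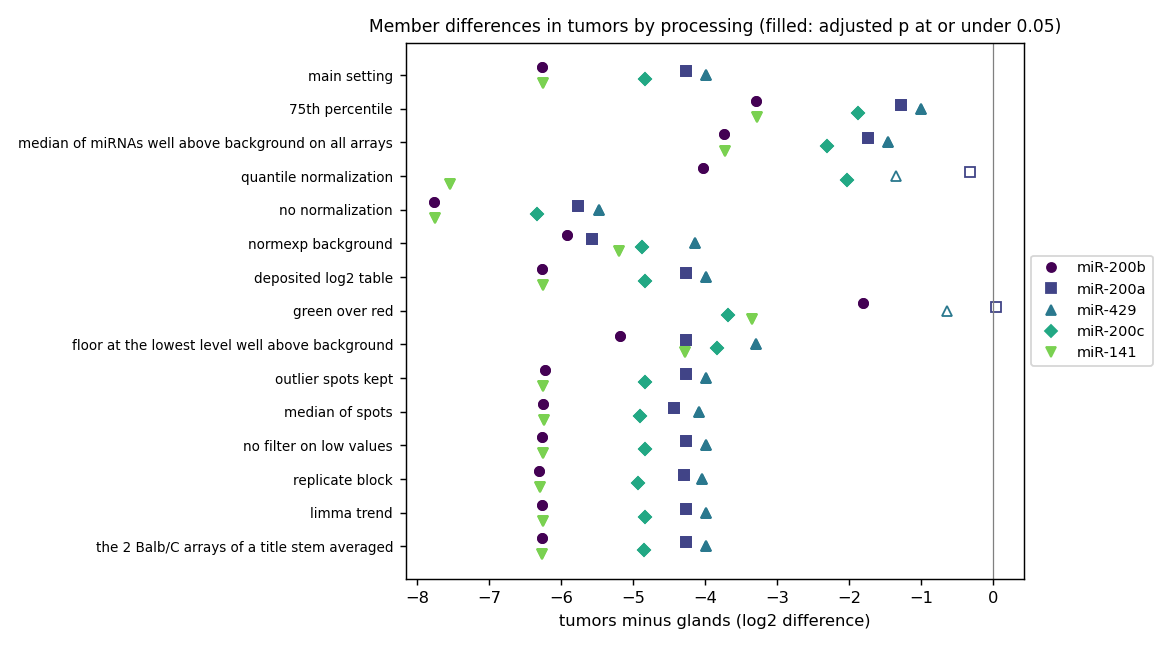
Tumors minus glands (log2 difference, horizontal axis) for each member under the main processing and the alternatives (rows), filled where limma's adjusted p was at or under 0.05. All 5 members lie below 0 in each row except miR-200a at 0.04 for green over red, and sizes shrink under 75th percentile scaling.

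Against the 2 FVB glands, which have the strain of the tumors and are part of the comparison above, all 5 members were again called lower by limma, with 88.1% of all tested miRNAs called and 52.5% called lower. The differences were -6.69 for miR-200b (SE 0.39), -6.34 for miR-141 (SE 0.30), -5.45 for miR-200c (SE 0.55), -4.54 for miR-200a (SE 0.34) and -4.32 for miR-429 (SE 0.45), beside a median of -1.04. With FVB glands alone, miR-200b was at least 48.6-fold and miR-141 at least 20.6-fold lower, or 5.14-fold and 2.18-fold under 75th percentile scaling. Without FVB replicate 2 the miR-200b difference was -6.05 and the miR-200c difference -4.77, and without FVB replicate 1 they were -7.33 and -6.13. Leaving out any 1 of the tumor, Balb/C or FVB129B6 arrays kept all 5 calls in both comparisons. Of all tested miRNAs, 87.7% to 90.3% were then called against glands and 83.9% to 88.3% against FVB glands.

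A list of 6 other miRNAs of epithelia, chosen with earlier results of these data known, was read beside the family. In tumors 4 of 6 were called lower than in glands, with a median difference of -3.65 beside -0.83 for all tested miRNAs, of which 52.5% were called lower. Under 75th percentile scaling 3 of 6 were called lower and 2 higher, with a median of -0.67. miR-205, a marker of basal mammary epithelium, stayed well above background on all 3 tumor arrays, with means of 2.63 against 5.96 in glands (difference -3.32, limma adjusted p = 3.52e-07). miR-203, which is linked to epidermal differentiation, was at least 4.04-fold lower and miR-182 at least 6.85-fold lower, with no tumor array well above background. Under 75th percentile scaling no bound could be given for either, with differences of -1.02 for miR-203 and -1.43 for miR-182, and miR-205 was no longer called (-0.35). miR-96, of the same cluster as miR-182, differed by -3.98 (adjusted p = 1.99e-07 by limma) with 1 tumor array well above background. miR-31 (difference -0.80) and miR-183 (0.28) did not pass, with limma adjusted p of 0.148 and 0.362. Both were called higher under 75th percentile scaling, at 2.18 and 3.26. For miR-31, 2 of 3 tumor arrays were well above background, but for miR-183 0 of 3 were, so no rise of miR-183 was measured.

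Set against FVB glands, 4 of 6 were called lower in Balb/C and 2 of 6 in FVB129B6 glands, where 37.9% and 39.5% of all tested miRNAs were called in either direction. Under 75th percentile scaling 2 of 6 were called lower in each, miR-182 and miR-183. Of all 261 tested miRNAs, 16 were then called lower in Balb/C and 43 in FVB129B6 glands. With the main scaling, miR-182 was called in both strains (differences of -1.72 and -1.36) and so was miR-183 (-2.26 and -2.49). In Balb/C miR-96 (-1.18) and miR-203 (-0.99) were called too. The limma adjusted p of these calls was 0.0024 to 0.0392. Between Balb/C and FVB129B6 glands none of the 6 was called by limma, and 1 had an unadjusted p under 0.05. The correlation with the family mean over the 8 gland arrays was 0.857 for miR-96 and 0.856 for miR-31 but 0.306 for miR-205, as a description.

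Markers of other cell types also differed between tumors and glands, and those of some types between strains. In tumors against glands, 5 of 5 stromal, 5 of 6 blood and lymphoid and 3 of 3 skeletal muscle miRNAs were called lower. These were the listed miRNAs on the array, with median differences of -4.23, -2.69 and -4.79. The 1 endothelial miRNA, miR-126-5p, was called higher, by 3.28. Its tumor signals, 0.953 to 1.16 times the array median, lay below the floor of every tumor array. That call therefore rests on tumor readings not well above background. Of all tested miRNAs, 52.5% were called lower. Under 75th percentile scaling 4 of 5 stromal, 2 of 6 blood and lymphoid and 2 of 3 skeletal muscle miRNAs were called lower and 1 of each higher, and the medians were -1.25, 0.28 and -1.81. Against FVB glands alone, 6 of 6 epithelial miRNAs were called lower, but of the skeletal muscle miRNAs 1 was called lower and 1 higher. With 75th percentile scaling, 3 epithelial miRNAs were called lower and 2 higher against FVB glands, with a median of -0.61. Of the skeletal muscle miRNAs, 0 were then called lower and 1 higher. Summed stromal signals, in multiples of the array median, were 606 to 1250 on gland arrays and 11.7 to 26.6 on tumor arrays. Those of the 5 members were 11.6 to 18 on tumor arrays and up to 790 on gland arrays. Between strains, skeletal muscle sums were 12.4 and 64.9 in FVB, 577 to 1000 in Balb/C and 349 to 395 in FVB129B6 glands, and all 3 of these miRNAs were called higher in both strains against FVB. Of all 261 tested miRNAs, 15 were called higher and 84 (32.2%) lower in Balb/C against FVB. In FVB129B6 against FVB, 21 were called higher and 82 lower. Of the 6 blood and lymphoid miRNAs, 1 was called lower in Balb/C, not above that rate, and 3 in FVB129B6 against FVB. Neither the 5 stromal miRNAs nor the 1 endothelial miRNA had a call by limma in any strain comparison. At an unadjusted limma p under 0.05 there were 2, 2 and 0 stromal miRNAs for Balb/C against FVB, FVB129B6 against FVB and Balb/C against FVB129B6. The part of other cell types in the members' levels was not tested.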

How the data were processed

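Total RNA was labeled with a kit for the Hy3 and Hy5 dyes, with Hy3 entered as the dye of each sample in the labels, and hybridized to a custom Agilent array. The authors deposited the green and red intensity of each spot from the Feature Extraction program (versions 9.5.1.1 for tumors and 10.5.1.1 for glands), background subtracted and dye normalized, with quality calls, and a table of log2 values that differs from the log2 of the green intensity by 1 constant per array. The content of the red channel is not given in the sources used here. Here the array median over 1336 mouse spots was subtracted from log2 green intensities, outlier spots were left out, and spots were averaged per miRNA. A miRNA was tested where at least 50% of its spots were well above background on at least 3 arrays of the fit, which kept 261 of 334 in both fits and all 5 members. The gland arrays alone thus decided which miRNAs were tested. Strains were compared over 8 gland arrays and tumors over 11 arrays with limma 3.58.1 in R 4.3.3, with p-values adjusted by Benjamini-Hochberg and called at 0.05, and the fits were tested on simulated data. The members and lists were chosen with earlier results of these data known. Besides the members, the text names the 5 miRNAs most correlated with the family mean and the epithelial list, and 4 names of the lists (miR-199a*, miR-142-3p, miR-133a and miR-126-3p) matched no miRNA on the array. Sequences and positions are from RefSeq, build GRCm38.p6. The alternatives are other scalings, background correction, filters, spot summaries, the red channel, left-out arrays and blocks. The number of arrays limits the precision.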

Additional observations from a re-analysis of the deposited data

Results flagged for a closer look

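The red channel enters no main comparison, only the alternative of green over red, and the dye entered for each sample is the green Hy3. Red signal was present for the family. On the 8 gland arrays, 32 of 32 spots of each of miR-200b, miR-200a, miR-429, miR-200c and miR-141 were well above background in red, beside 86.3% of all mouse spots. On the tumor arrays the count was 2 of 12 for miR-200c and 0 of 12 for each of the other 4. Unscaled red intensities of miR-200b were 7970 to 18500 in glands and 154 to 201 in tumors. No group had the 4 arrays needed to look for a single array far from the rest.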

How the results depend on the processing

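All 5 members stayed called lower in tumors, in both comparisons, under 75th percentile scaling and the median of miRNAs well above background. They also stayed called with no normalization, normexp, the deposited table, a floor, outlier spots kept, the median of spots, no filter and trend. The same held without any single tumor, Balb/C or FVB129B6 array (5 to 5). In these settings 87.0% to 93.1% of all tested miRNAs were called against glands and 80.1% to 91.3% against FVB glands. With quantile normalization and with green over red, 3 were called in each, beside 68.6% and 66.7% of all miRNAs against glands. Against FVB glands these shares were 64.8% and 60.2%. For green over red miR-200a was then at 0.04 against glands. Among miRNAs well above background on every array, 15 in the tumor fit, no member was left to test. For Balb/C against FVB the 1 call became 0 under 75th percentile, median of miRNAs well above background, quantile, no normalization and normexp. It also became 0 with green over red, all 11 arrays in the fit and the averaged Balb/C pair. In that order, 47, 69, 54, 151, 113, 65 and 65 of 261 tested miRNAs were called, then 83 of 253. With the main processing 99 of 261 were called. Without a single Balb/C or FVB129B6 array 0 to 1 members were called, beside 29.8% to 36.5% of all tested miRNAs. Between FVB129B6 and FVB, 4 members were called with no normalization (68.6% of all miRNAs), 1 with normexp (46.0%) and 0 to 1 without single arrays. Between strains the count was 1 for the median of miRNAs well above background (31.4%), 3 with no normalization (63.6%), 1 with normexp (47.9%) and 0 to 2 without single arrays. Balb/C against FVB129B6 gave 0 throughout.

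Replicate numbers gave no clear pairing of the arrays. After removal of group means, the 15 same-numbered pairs correlated at 0.0440 on average, from -0.277 to 0.422. The 30 other pairs correlated at -0.0221 on average, from -0.515 to 0.277. Removing group means ties these averages to each other, so the second is not a separate comparison. With the replicate block, 0 members were called for Balb/C against FVB, and counts in the other comparisons were as without it.

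Signs turned mainly where FVB129B6 was set against FVB. In the order miR-200a, miR-200b, miR-429 these differences were 0.28, 0.05 and 0.14 (75th percentile), 0.44, 0.21 and 0.30 (median of miRNAs well above background) and 0.48, 0.21 and 0.05 (quantile), and with miR-200c last 1.33, 1.10, 1.19 and 0.87 (no normalization), 0.59, 0.33, 0.50 and 0.24 (normexp) and 0.21, 0.11, 0.10 and 0.02 (green over red). Without single arrays they reached -0.61 to 0.45, -0.95 to 0.32, -0.70 to 0.25 and -1.22 to 0.14, with signs turned without FVB replicate 2 and, for miR-200a at 0.03, without FVB129B6 replicate 2. Balb/C against FVB turned to 0.58, 0.39, 0.54, 0.06 and, for miR-141, 0.78 with no normalization, and to 0.03 (miR-200a), 0.04 (miR-429) and 0.30 (miR-141) with normexp.

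The cluster difference of tumors minus glands, 0.71, became 2.88 with quantile normalization, 2.71 with green over red, -0.18 with normexp and -0.19 with a floor. Without miR-200b, miR-200a, miR-429, miR-200c and miR-141 in turn it was 1.43, 0.42, 0.29, 1.42 and 0.01. Under quantile normalization it was 0.15 for FVB129B6 minus FVB and 0.02 for Balb/C minus FVB129B6. Without miR-200c, Balb/C minus FVB was -0.27, FVB129B6 minus FVB -0.52 and Balb/C minus FVB129B6 0.25; without miR-141 they were 0.44, 0.33 and 0.11; without miR-429 the last was 0.15. The seed difference of tumors minus glands, 0.23, was 1.47 with quantile normalization, 1.23 without miR-200a and -0.77 without miR-141. For Balb/C minus FVB129B6, 0.13, it was 0.18, 0.07 (green over red), 0.23, 0.09, 0.17 and 0.03 without miR-200a, miR-429, miR-200c and miR-141. The causes were not tested. Signal over background limits all tumor values. Calls over all miRNAs also varied with the setting, and so did the number of miRNAs tested. For Balb/C against FVB they ranged from 47 of 261 tested to 178 of 334, and the highest share was 57.9%, with no normalization. For FVB129B6 against FVB they ranged from 39 of 261 to 191 of 334, and the highest share was 68.6%, with no normalization. Between the other 2 strains they ranged from 0 to 17 of 261. For tumors against glands they ranged from 13 of 15 to 311 of 334. The lowest share was 66.7%, for green over red, so most tested miRNAs were called in every setting.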
